A study of Mus musculus with 12 samples.

Results

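The 8 genes described here encode the subunits of AMP-activated protein kinase (AMPK) and its best known upstream kinases: Prkaa1, Prkaa2, Prkab1, Prkab2, Prkag1, Prkag2, Stk11 and Camkk2. They are 8 of 23337 gene symbols in a count table of mouse NU1 cells, and all 8 were among the 12406 genes with enough reads to test. The list was read from the table by symbol. The list was chosen by the lower counts of Prkaa1 after knockdown of Stag2 in both culture states, so the knockdown values of the members are given below as a description, with their standard errors (SE) and no test. The comparisons of quiescent with proliferating cells were tested for the other 7 genes. For Prkaa1 they rest on the same libraries that chose it and are described without a test.

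AMPK is a sensor of cellular energy made of a catalytic alpha, a scaffolding beta and a nucleotide-binding gamma subunit. A rise in AMP or ADP relative to ATP favours phosphorylation of the alpha subunit by LKB1, the product of Stk11, while CaMKK2 phosphorylates it when calcium rises. The active kinase restrains lipid and sterol synthesis and mTORC1 signalling and promotes catabolism and autophagy, mostly by phosphorylating proteins, which transcript counts do not measure.

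NU1 is a line of mouse urothelial cells, the lining of the bladder, that became immortal on its own during passaging. Cells carried a lentiviral hairpin, either the non-targeting shNT (genotype WT in the labels) or sh4 against Stag2 (Stag2-KD), a subunit of the cohesin complex. They were collected while proliferating, or after quiescence had been induced by growing them to confluence and then adding 1 µM rosiglitazone and 0.5 µM erlotinib (differentiation day 7 in the labels), so that confluence, both agents and time cannot be told apart in the quiescent groups. Each of the 4 groups, proliferating shNT, proliferating sh4, quiescent shNT and quiescent sh4, had 1 library from each of experiments 5, 7 and 9. With only 1 targeting hairpin, the loss of Stag2 and any other effect of sh4 cannot be told apart.

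Libraries held 14524429 to 21987539 counts, and no library repeated another. Stag2 was lower with sh4 in all 3 experiments of both states: 20.96% ± 3.49 (SD, n = 3) of the matched shNT level remained in proliferating cells and 10.1% ± 2.44 in quiescent cells. Of 18 urothelial and epithelial marker genes, 9 exceeded a CPM of 1, that is 1 read per 1000000 counts after scaling, in every library, with a summed level between 12954 and 23610 CPM. Trp63, a basal cell factor, was at 0 in all 12 libraries, and Upk3a, a component of the urothelial plaque, had a single read in 1 library. The summed CPM of fibroblast markers did not exceed 2.22, that of smooth muscle markers 0.835 and that of endothelial markers 0.239. The 5 immune markers summed to 15.5 to 33.2 CPM in proliferating shNT, 26.2 to 55.3 in proliferating sh4, 39.6 to 61.8 in quiescent shNT and 110.2 to 169.4 in quiescent sh4. Most of this was Csf1r, while Ptprc, the pan-leukocyte marker, did not exceed 0.408 CPM and Cd3e was at 0. The part of Csf1r in the values below was not tested.

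Prkaa1 encodes alpha1, 1 of the 2 catalytic subunits. In proliferating cells its level was 79.0, 87.9 and 74.6 CPM in the shNT libraries of experiments 5, 7 and 9, and 57.1, 54.3 and 50.5 CPM in the sh4 libraries. In quiescent cells it was 94.1, 88.8 and 87.3 CPM with shNT and 40.9, 50.8 and 39.96 CPM with sh4. Every sh4 library therefore lay below every shNT library of either state. The sh4 library of the same experiment held 67.2% ± 5.21 (SD, n = 3) of the shNT level in proliferating cells and 48.8% ± 7.34 in quiescent cells. The fitted log2 fold change was -0.58 (SE 0.12) in the first and -1.04 (SE 0.12) in the second, and by experiment it ran from -0.69 to -0.47 and from -1.20 to -0.81. In bulk cultures, fewer cells expressing a gene and less RNA per cell cannot be told apart.

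**Figure D1:**
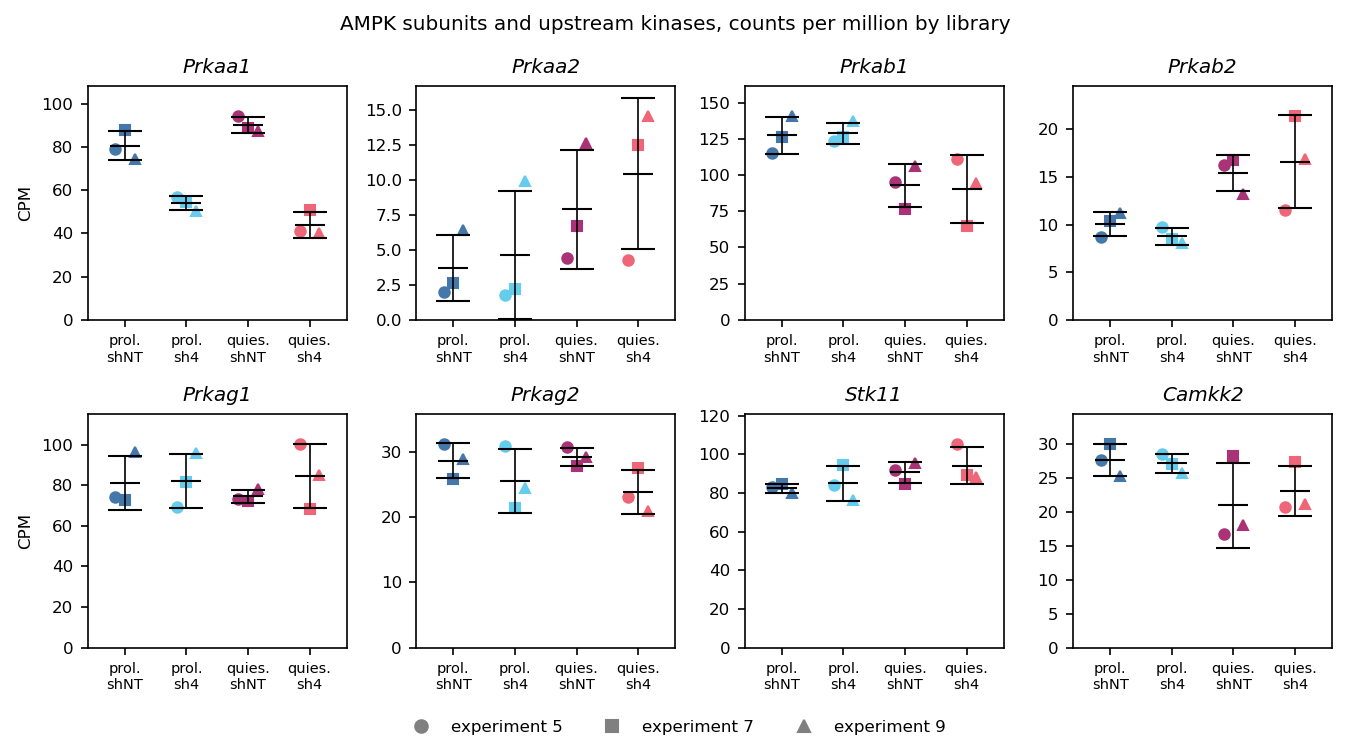
Level of each of the 8 genes in CPM (vertical axes, starting at 0) in the 4 groups, with 1 point per library shaped by experiment, a bar for the group mean and whiskers of 1 SD. Prkaa1 lies between 39.96 and 57.1 CPM in the 6 sh4 libraries and between 74.6 and 94.1 CPM in the 6 shNT libraries, and the other 7 genes show no such separation in both states.

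Groups of 3 libraries that do not overlap were found for 5.31% of all tested genes after knockdown in proliferating cells and for 19.1% in quiescent cells. Among the members this held for 1 in proliferating cells, Prkaa1, and for 2 in quiescent cells, Prkaa1 and Prkag2. Across all tested genes, 163 (1.31%) were lower without overlap in both states. Ordered from the lowest fold change upward, Prkaa1 stood 234th of 12406 genes in proliferating and 224th in quiescent cells. In edgeR's test across all genes, 3 genes (0.0242%) passed an adjusted p of 0.05 after knockdown in proliferating cells, with or without the experiment as a block. In quiescent cells 54 (0.435%) passed, and 440 (3.55%) with the block.

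The 3 sites below carry the sequence features that the 3′ untranslated region (UTR) of Prkaa1 shares with Stag2. They were looked for after the values had been seen, by ranking 4094 hexamers of 3′ UTRs. The rank was by the median knockdown fold change of the genes holding each hexamer, lowest first, with the 8 members and Stag2 left out. The hexamers TGACGC and GACGCA, which overlap by 5 bases in the heptamer TGACGCA, took the first and second places in proliferating cells and the second and first in quiescent cells. Ranks 3 to 5 also went to hexamers holding CG. In proliferating cells these were ACGCGA (median -0.070), CGACGC (-0.067) and TGTCGC (-0.060), close to GACGCA (-0.073) and TGACGC (-0.082). In quiescent cells they were CGACGC (-0.133), CGCGTC (-0.116) and CGCGAC (-0.114), against -0.189 for GACGCA and -0.171 for TGACGC. Only the transcript strand was searched. The sites are printed 5′ to 3′ on the transcript strand from GRCm38 (mm10) with the GENCODE M21 annotation, with 10 flanking bases and the hexamer or heptamer in capitals. The first lies in coding exon 20 of Stag2 at chrX:42250015-42250041, plus strand, and the other two in the 3′ UTR of Prkaa1 in exon 9, plus strand, at chr15:5180627-5180652 and chr15:5181452-5181477.
Stag2 coding: ctgatgaagaTGACGCAtatcaggtat
Prkaa1 3′ UTR, first site: gcataaaagaTGACGCtatagtttat
Prkaa1 3′ UTR, second site: caagtcgggaGACGCAagagcttaat

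The first Prkaa1 site starts at base 1705 of the 2967 bases of the 3′ UTR, and it shares an unbroken run of 10 bases with the Stag2 transcript site. The second starts at base 2530 and shares 6. Of the 8 members, 1 had either hexamer in its 3′ UTR, Prkaa1. Prkab2 and Camkk2 each held 1 in the rest of the transcript and the other 5 held none. For each gene the longest annotated 3′ UTR of a protein-coding transcript was searched, and shares of genes with a hexamer were not matched on its length. Of 10872 tested genes with a 3′ UTR that could be searched, 1147 (10.6%) held either hexamer. The values that follow restate how the hexamers were chosen, on the same fold changes, and are no separate support. The median log2 fold change of these genes after knockdown was -0.07 in proliferating and -0.15 in quiescent cells, against 0.004 and 0.03 for genes without. Fold changes were below 0 for 67.2% of the genes with a hexamer and 49% of those without in proliferating cells, and for 69.5% and 45.7% in quiescent cells. In quiescent cells 21 of the 32 searched genes called lower held one, as did 2 of the 14 called higher. With the experiment block 98 of 229 called lower (42.8%) held one, and 13 of 177 called higher (7.34%). The sequence of hairpin sh4 was not used here, and these matches are a description of letters: whether any of them takes part in the lower level of Prkaa1 was not tested.

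**Figure D2:**
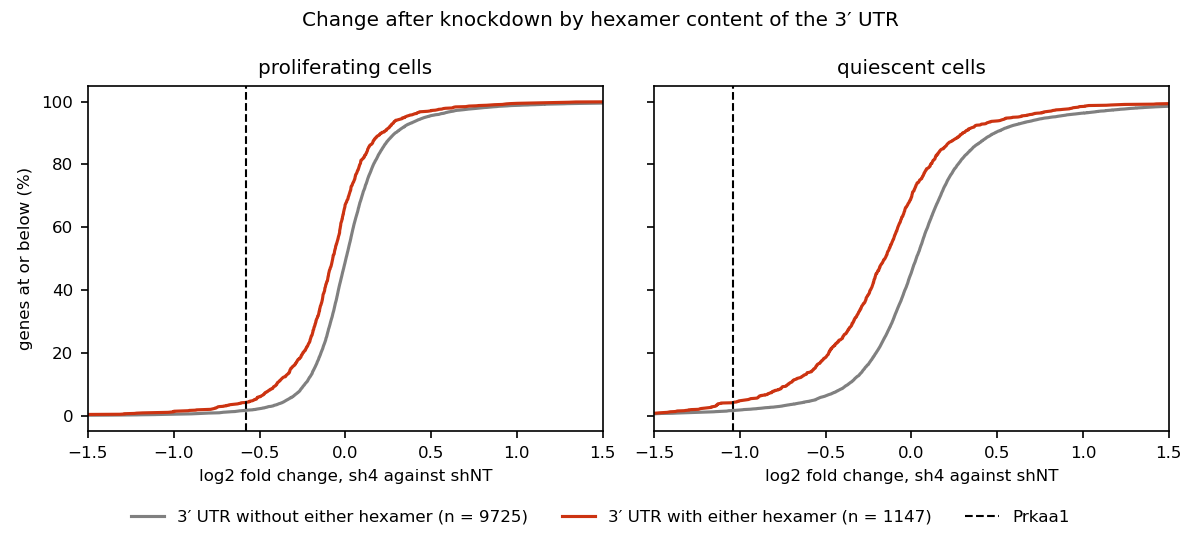
Cumulative share of genes (vertical axis, %) at or below each log2 fold change of sh4 against shNT (horizontal axis) in proliferating (left) and quiescent cells (right), for the 1147 genes with TGACGC or GACGCA in the 3′ UTR and the 9725 without. The curve of genes with a hexamer lies to the left in both panels, with medians of -0.07 and -0.15, and the dashed line marks Prkaa1 at -0.58 and -1.04.

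The second catalytic subunit, alpha2, is encoded by Prkaa2 and was the member with the lowest level per length. Its CPM in experiments 5, 7 and 9 were 2.02, 2.66 and 6.42 in proliferating shNT, 1.75, 2.20 and 9.93 in proliferating sh4, 4.42, 6.67 and 12.6 in quiescent shNT, and 4.31, 12.5 and 14.5 in quiescent sh4. Experiment 9 gave the highest value in every group, and the spread between experiments was as large as that between groups, which all overlapped. The knockdown log2 fold change was 0.32 (SE 0.72) in proliferating and 0.40 (SE 0.70) in quiescent cells. The first of these went from -0.91 to 0.98 when single libraries were left out.

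Quiescence in control cells was compared with proliferation by edgeR's quasi-likelihood test over all 12 libraries, with Benjamini-Hochberg adjustment over all 12406 genes. Of the 7 members other than Prkaa1, none passed an adjusted p of 0.05, where 20% of all tested genes did (2 had an unadjusted p below 0.05, against 34.8% of genes). With the experiment as a block, 3 of the 7 passed, against 35.3% of all genes: Prkaa2 and Prkab2 rose, as 16.8% of genes did, and Prkab1 fell, as 18.5% did. In knockdown cells 1 of the 7 passed, Prkab2, against 18.4% of genes (2 had an unadjusted p below 0.05, against 33%). With the block 3 did, against 33%: Prkaa2 and Prkab2 rose (15.9% of genes) and Prkab1 fell (17.2%). Over 7 genes these counts lie near the background shares. The median log2 fold change of all 8 members was 0.08 in control and -0.03 in knockdown cells, and that of all tested genes was 0.005 in both.

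The beta subunits hold the complex together and bind glycogen, and their 2 genes went opposite ways with quiescence in every experiment with either hairpin. Prkab1, encoding beta1, measured 115.2, 126.6 and 140.5 CPM in proliferating shNT and 95.1, 76.8 and 106.5 CPM in quiescent shNT. With sh4 it measured 123.3, 126.1 and 137.3 CPM in proliferating and 111.4, 64.8 and 94.3 CPM in quiescent cells. The quiescent libraries lay below the proliferating ones in both comparisons. The log2 fold change in control cells was -0.46 (SE 0.19, adjusted p = 0.104 in edgeR, and 0.0358 with the experiment block). In knockdown cells it was -0.51 (SE 0.19, adjusted p = 0.0771 in edgeR, 0.0227 with the block, and 0.0397 without the quiescent sh4 library of experiment 5). Of 18 alternative fits in edgeR or DESeq2, 16 gave no call for Prkab1 in knockdown cells, with adjusted p up to 0.204.

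Prkab2, encoding beta2, measured 8.70, 10.4 and 11.2 CPM in proliferating shNT and 16.2, 16.8 and 13.2 CPM in quiescent shNT, and with sh4 9.79, 8.46 and 8.09 CPM against 11.6, 21.4 and 16.9 CPM. Each quiescent library was higher than each proliferating library with the same hairpin. The log2 fold change was 0.61 (SE 0.22) in control cells, with an adjusted p of 0.0745 in edgeR and 0.0422 with the block. In knockdown cells it rose by 0.92 (SE 0.22) on the log2 scale, with an adjusted p of 0.0164 in edgeR. That call was lost when any of 4 libraries was left out (proliferating or quiescent sh4 of experiment 7 or 9), with adjusted p from 0.0535 to 0.0600. Non-overlapping groups, as seen for both beta genes, were found for 35.6% of all tested genes with quiescence in control and 37.2% in knockdown cells; Stk11 was the third member to show them, in control cells.

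Per kilobase of exon, Prkab1 made up 95.5% ± 0.182 (SD, n = 3) of the 2 beta transcripts in proliferating shNT and 90.7% ± 2.34 in quiescent shNT. With sh4 these shares were 96.0% ± 0.572 and 89.3% ± 5.40. The difference with quiescence was -4.76 percentage points with shNT and -6.77 with sh4, and the groups did not overlap. A two-sided exact permutation test gave p = 0.1 for each, the smallest p that 3 libraries against 3 allow, and 0.3 after adjustment over 6 such tests. Over the 12 libraries the 2 beta genes had a Pearson r of -0.891 on the log2 CPM scale, which is given as a description because the libraries share groups and experiments.

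**Figure D3:**
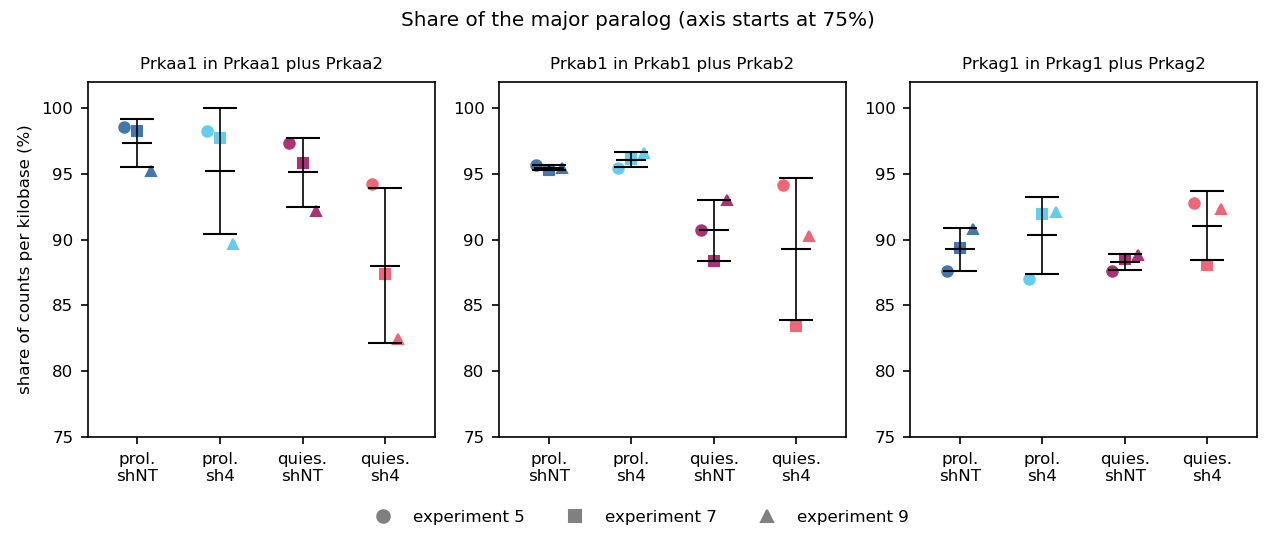
Share of the major paralogue in each pair of subunit genes (vertical axis, % of CPM per kilobase, starting at 75%), with 1 point per library, bars for the group means and error bars of 1 SD. The beta1 share lies near 95.5% to 96.0% in proliferating groups and near 89.3% to 90.7% in quiescent groups, and the alpha1 share is lowest in quiescent sh4, at 88.0%.

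The alpha1 share of the alpha transcripts was 97.3% ± 1.84 in proliferating shNT, 95.2% ± 4.78 in proliferating sh4, 95.1% ± 2.63 in quiescent shNT and 88.0% ± 5.89 in quiescent sh4 (SD, n = 3 each). The difference with quiescence was -2.23 points in control cells and -7.18 points in knockdown cells, and the groups overlapped in both. No test is given, because Prkaa1, whose values chose the list, enters this share. Prkaa2 itself had a log2 fold change with quiescence of 1.10 (SE 0.72, adjusted p = 0.305 in edgeR) in control cells and 1.17 (SE 0.72, adjusted p = 0.280) in knockdown cells. Within each experiment the quiescent library was the higher in all 6 pairs, and with the experiment block the adjusted p was 0.0208 for a log2 fold change of 1.14 and 0.00822 for one of 1.39. With single libraries left out, the unblocked log2 fold change of Prkaa2 ran from 0.58 to 1.76 in control and from 0.78 to 2.40 in knockdown cells.

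With quiescence Prkaa1 had a log2 fold change of 0.16 (SE 0.12) in control cells and of -0.30 (SE 0.12) in knockdown cells, where it went from -0.41 to -0.24 when single libraries were left out.

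The gamma subunits bind AMP, ADP and ATP. Prkag1, encoding gamma1, had the highest mean level per kilobase of exon of the 8 genes and lay between 68.4 and 100.2 CPM in all 12 libraries. Its log2 fold change with quiescence was -0.12 (SE 0.17) in control and 0.04 (SE 0.17) in knockdown cells, and after knockdown 0.02 in proliferating and 0.18 in quiescent cells. Prkag2, encoding gamma2, measured 31.2, 25.9 and 29.0 CPM in proliferating shNT, 30.9, 21.4 and 24.5 CPM in proliferating sh4, 30.8, 28.0 and 29.2 CPM in quiescent shNT and 23.2, 27.7 and 21.0 CPM in quiescent sh4. The last 2 groups did not overlap, though the highest sh4 library (27.7 CPM) lay just under the lowest shNT library (28.0 CPM), and the log2 fold change was -0.29 (SE 0.16). With quiescence, Prkag2 stood at 0.03 (SE 0.16) in control and -0.10 (SE 0.16) in knockdown cells. The gamma1 share of the 2 gamma transcripts stayed between 88.3% and 91.1% in the group means. Prkag3, the gamma subunit of skeletal muscle, had 3 reads in all 12 libraries together, no more than 1 in any, where a floor of 3 counts corresponds to 0.136 to 0.207 CPM.

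The upstream kinases showed no call in either comparison. Stk11 lay between 76.6 and 105.2 CPM over the 12 libraries, with log2 fold changes of 0.14 (SE 0.11) and 0.15 (SE 0.11) with quiescence in control and knockdown cells and of 0.04 and 0.05 after knockdown in proliferating and quiescent cells. Camkk2 measured 27.7, 30.0 and 25.3 CPM in proliferating shNT and 16.8, 28.2 and 18.1 CPM in quiescent shNT. Experiment 7 stood apart, with 28.2 CPM in quiescent cells. For Camkk2 the log2 fold change was -0.40 (SE 0.19, adjusted p = 0.174 in edgeR), and without that quiescent library it was -0.66 (adjusted p = 0.0238). Of 18 alternative fits in edgeR or DESeq2, 17 gave no call, with values up to -0.25 and adjusted p up to 0.464. With sh4 Camkk2 went from 28.6, 27.1 and 25.8 CPM to 20.8, 27.4 and 21.2 CPM, a log2 fold change of -0.23 (SE 0.19, adjusted p = 0.434 in edgeR), and experiment 7 again gave the highest quiescent value.

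**Figure D4:**
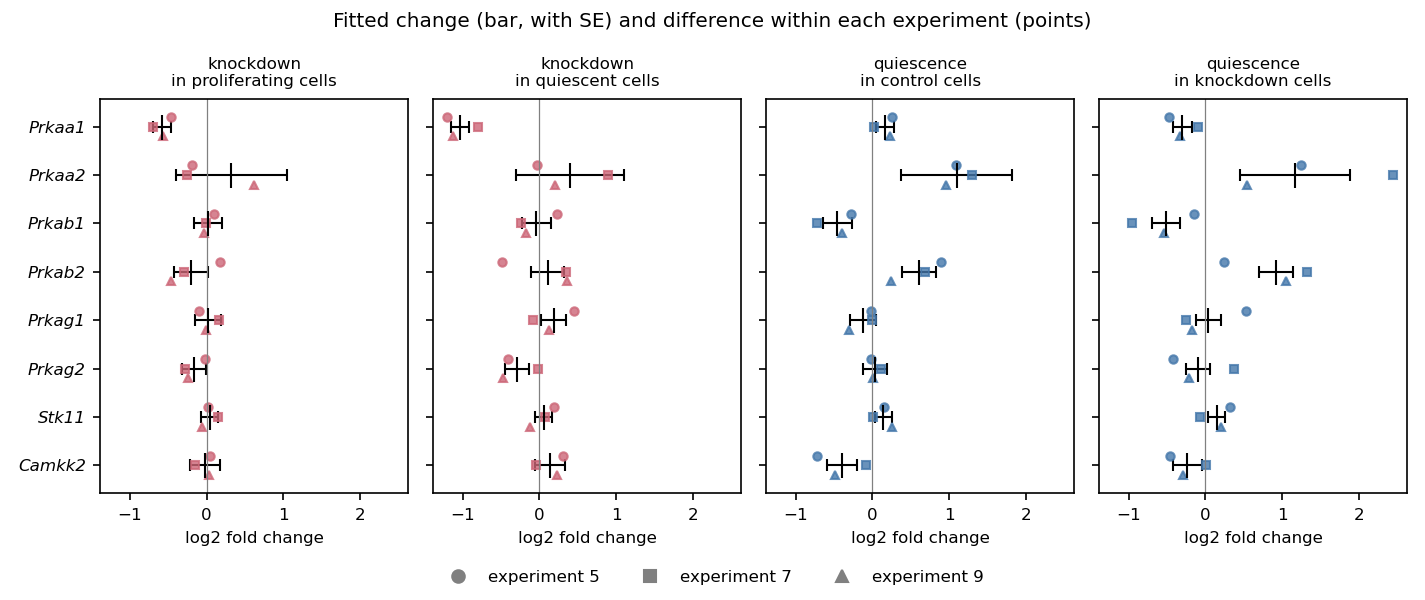
Fitted log2 fold changes (horizontal axes) of the 8 genes in the 4 comparisons, with bars of 1 SE and small marks for the single experiments. Prkaa1 stands at -0.58 and -1.04 after knockdown, and Prkab1 and Prkab2 lie on opposite sides of 0 with quiescence, at -0.46 and 0.61 in control and -0.51 and 0.92 in knockdown cells.

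Per kilobase of exon, the order of the mean levels over the 12 libraries was Prkag1 (37.0 CPM per kilobase), Prkab1 (35.8), Stk11 (19.2), Prkaa1 (14.4), Prkag2 (4.15), Prkab2 (2.50), Camkk2 (2.27) and Prkaa2 (0.837). The ranges over libraries overlapped between neighbours except between Prkaa1, with a lowest value of 8.58, and Prkag2, with a highest value of 4.82. This order depends on the length used, and was worked out with the exonic length only. The longest protein-coding transcript is shorter for some members: 1652 against 2175 bases for Prkag1, 2089 against 3066 for Prkab1 and 4861 against 10921 for Camkk2. With these shorter lengths Prkab1 would come before Prkag1, and its mean CPM was the higher in every group. None of the 50-base stretches of any member's transcripts occurred in another gene's transcripts. Exons of Prkab2, Prkag1, Prkag2 and Stk11 overlap annotated exons on the opposite strand (Gm17651; B130046B21Rik; Prkag2os1 and Prkag2os2; Cbarp). The libraries were stranded, but the counting setting is not given in the sources used here, so reads of these partners may be included. On GRCm38 the genes span chr15:5143861-5181899 (Prkaa1), chr4:105029874-105109890 (Prkaa2), chr5:116013586-116024508 (Prkab1), chr3:97658193-97673812 (Prkab2), chr15:98812797-98831521 (Prkag1), chr5:24862744-25100642 (Prkag2), chr10:80115803-80130682 (Stk11) and chr5:122731170-122779409 (Camkk2).

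The 5 genes whose log2 CPM over the 12 libraries followed Prkaa1 most closely were Stag2 (Pearson r = 0.975), Ctnna1 (0.969), Osgep (0.958), Pdcl3 (0.943) and Chfr (0.942). Ctnna1 encodes alpha-catenin of adherens junctions, Osgep a subunit of the complex that modifies transfer RNAs, Pdcl3 a phosducin-like chaperone and Chfr a ubiquitin ligase of the mitotic checkpoint. No test is attached to these values, since the profile of Prkaa1 chose them and the libraries share groups and experiments. With the mean of each experiment removed, 4 of the 5 were again among the top 5, and by Spearman rho 1 was. After knockdown in quiescent cells the log2 fold changes were -1.76 for Ctnna1, -0.81 for Osgep, -1.55 for Pdcl3 and -1.17 for Chfr.

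All 4 of these genes other than Stag2 held a TGACGC or GACGCA hexamer in the 3′ UTR, where 10.6% of searched genes do. Those of 3 of them are printed for comparison with the Prkaa1 sites above, from GRCm38 on the transcript strand with the same use of capitals. They lie at chr14:50915704-50915729 (Osgep, minus strand), chr1:38996309-38996335 (Pdcl3, plus strand) and chr5:110171295-110171320 (Chfr, plus strand).
Osgep 3′ UTR: aaacccaacaTGACGCcacaataaaa
Pdcl3 3′ UTR: cttcttgataTGACGCAttgtctgggt
Chfr 3′ UTR: agctgtgtcaGACGCAttctccggaa
The longest run shared with the Stag2 site was 7 bases for Osgep, 9 for Pdcl3 and 7 for Chfr, against 10 for the first Prkaa1 site. The genes were chosen for resembling Prkaa1, and their fold changes entered the ranking that chose the hexamers. The count of 4 of 4 is therefore a description and no separate support.

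**Figure D5:**
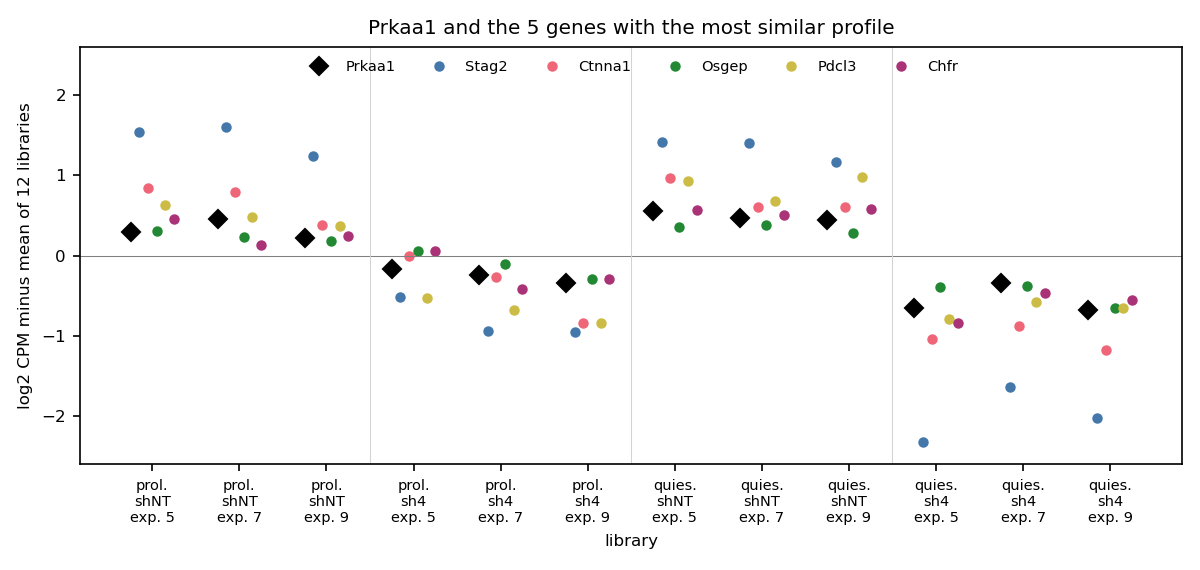
Log2 CPM minus the mean of the 12 libraries (vertical axis) for Prkaa1 (diamonds) and the 5 genes with the highest Pearson r to it (0.942 to 0.975), in each library (horizontal axis). All 6 genes lie above 0 in the 6 shNT libraries, and all lie below 0 in the 3 quiescent sh4 libraries.

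The wider pathway was read from 7 lists of AMPK partners, regulators, related kinases, substrates and outputs. After knockdown in proliferating cells no gene of any list passed the adjusted p of 0.05 (0.0242% of all tested genes did), and 3 listed genes had an unadjusted p below 0.05 (1.84% of all genes). In quiescent cells an unadjusted p below 0.05 was found for 12% of all genes. Among the lists it was found for 2 of 11 tested upstream partners, 2 of 15 regulators, 2 of 12 related kinases and 5 of 20 metabolic substrates. It was also found for 1 of 23 mTORC1 and autophagy genes, 3 of 10 adenylate genes and 0 of 11 outputs. At the adjusted threshold 2 listed genes passed (0.435% of all did), and both were lower. Srebf2, the transcription factor of sterol synthesis, is a protein that AMPK phosphorylates. It measured 465.0, 345.8 and 325.3 CPM in quiescent shNT and 156.6, 171.5 and 152.2 CPM in quiescent sh4. It fell by 1.24 on the log2 scale (SE 0.15, adjusted p = 0.00727 in edgeR), and without the quiescent sh4 library of experiment 9 the adjusted p was 0.0610. Wwp1, a ubiquitin ligase, measured 48.0, 42.3 and 42.1 CPM in quiescent shNT and 17.5, 20.9 and 19.7 CPM in quiescent sh4. It fell by 1.19 on the log2 scale (SE 0.21, adjusted p = 0.0360 in edgeR), and this call held in 3 of the 12 fits that left out 1 library, with adjusted p up to 0.196. Each of the 2 genes had 1 site with either hexamer in its 3′ UTR, where 10.6% of searched genes hold one. The fold changes of both genes entered the ranking that chose the hexamers, so these sites are no separate support.

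With quiescence in control cells, where 8.33% of all tested genes rose and 11.7% fell, the lists gave scattered calls. Among 15 tested regulators of AMPK, 2 rose and 2 fell. Flcn and Fnip1, which form the folliculin complex at the lysosome, rose by 0.51 (adjusted p = 0.00555 in edgeR) and 0.50 (adjusted p = 0.0376) on the log2 scale. Nmt2, an enzyme that attaches myristate as is needed on the beta subunits, fell by 0.74 (adjusted p = 0.0126 in edgeR), and the phosphatase Ppm1f fell by 0.63 (adjusted p = 0.0290). The Flcn call held in all 12 fits with 1 library left out, that of Nmt2 in 11, Ppm1f in 8 and Fnip1 in 6. Of 12 AMPK-related kinases, Sik1 rose by 1.14 (adjusted p = 0.000357 in edgeR) and Hunk by 2.16 (adjusted p = 0.0318). The level of Hunk was low, at 0.224 to 0.966 CPM in proliferating and 1.71 to 3.46 CPM in quiescent shNT. Melk, a kinase of dividing cells, fell by 4.25, from between 24.9 and 29.3 CPM to between 0.552 and 2.21 CPM. With the experiment block, where 16.8% of all tested genes rose and 18.5% fell, 3 regulators rose and 3 fell. Of the related kinases 5 rose and 1 fell with it. None of the 11 tested partners of the upstream kinases passed (1 had an unadjusted p below 0.05, against 34.8% of all genes). With the block Camkk1, a second calcium-dependent kinase kinase, fell by 1.16 on the log2 scale (adjusted p = 0.00442 in edgeR); it is named after its values were seen. None of 23 mTORC1 and autophagy genes passed (4 had an unadjusted p below 0.05, against 34.8% of all genes), and 4 rose with the block.

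Among 20 tested metabolic substrates, 2 rose and 1 fell. Hdac5, a class IIa deacetylase, rose by 2.72 on the log2 scale (adjusted p = 0.00117 in edgeR), and Pnpla2, the lipase that opens triglyceride breakdown, by 0.57 (adjusted p = 0.00216). Both calls held in all 12 fits that left out 1 library. Of 10 genes that set adenylate levels 1 rose and 4 fell, with a list median of -0.50. Adk, adenosine kinase, fell by 0.83 (adjusted p = 0.00312 in edgeR), and Ampd2, an AMP deaminase, by 0.69 (adjusted p = 0.0245). Nt5c1a, an AMP-hydrolysing nucleotidase, fell as well (adjusted p = 0.00995 in edgeR), from 38, 64 and 8 reads to 1, 2 and 1. Of 11 transcriptional outputs 2 fell, Nrf1 by 0.46 (adjusted p = 0.0166 in edgeR) and Sirt1 by 0.52 (adjusted p = 0.0323). With the block, where 16.8% of all tested genes rose and 18.5% fell, 3 metabolic substrates rose and 3 fell. Likewise 2 adenylate genes rose and 5 fell, and 1 output rose and 3 fell. The outputs added by the block, Ppargc1a and Tfam, are named after their values were seen. Ppargc1a, a coactivator of mitochondrial biogenesis, rose by 2.46 (adjusted p = 0.00170 in edgeR with the block, 0.153 without). Its level was low, at 0.173 to 1.19 CPM in proliferating and 1.24 to 4.41 CPM in quiescent shNT. Tfam, a factor of mitochondrial DNA, fell by 0.49 (adjusted p = 0.0289 in edgeR with the block). The calls of Ampd2, Nrf1, Sirt1 and Hunk were each lost without 1 or more single libraries.

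In knockdown cells, where 7.59% of all genes rose and 10.8% fell with quiescence, the lists gave 2 higher and 4 lower regulators, 3 higher and 5 lower metabolic substrates, 1 higher and 1 lower related kinase and 2 lower adenylate genes. The related kinases were Sik1, which rose by 1.44 on the log2 scale (adjusted p = 0.000268 in edgeR), and Melk, which fell by 2.91 (adjusted p = 0.00290), each also in all 12 fits with 1 library left out. No upstream partner, mTORC1 or autophagy gene, or transcriptional output passed (2, 4 and 1 had an unadjusted p below 0.05, against 33% of all genes). With the block, 15.9% of all tested genes rose and 17.2% fell. Higher and lower calls then numbered 3 and 4 among regulators, 4 and 5 among substrates, and 4 and 1 among related kinases. They numbered 1 and 5 among adenylate genes, 1 and 0 among partners, and 1 and 1 among outputs. Among mTORC1 and autophagy genes they numbered 3 and 0. Whether a change with quiescence differed between the hairpins was tested by the interaction term, which no gene of 12406 passed in edgeR (219, or 1.77%, had an unadjusted p below 0.05, and 6 passed in DESeq2).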

How the data were processed

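RNA sequencing of polyA-selected RNA was deposited as 1 table of raw counts per gene symbol for 12 libraries. The counts were made by the authors from stranded libraries with reads aligned to mm10, and the tools named are Bowtie, TopHat, HTSeq and DESeq2, per the submitters' processing notes; versions and counting settings are not given in the sources used here. Samples were grouped by title. The genes, lists and tests were chosen with earlier results of these data known. Genes were kept with edgeR's filterByExpr (minimum count 10), scaled by TMM, and fitted with quasi-likelihood models of 4 group means (edgeR 4.0.16, R 4.3.3), with adjusted p below 0.05 as the threshold. Levels are CPM, counts per 1000000 after TMM scaling. Before use, the fit was run on simulated counts to check that added changes were found. These counts held no effect of the experiment, so they cannot show how the fit behaves with one.

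The experiment number coincides with the batch in the labels. Deviations from the group means of same-numbered libraries correlated at r = 0.526 on average (18 pairs, 0.225 to 0.789). The average of -0.259 for different numbers largely follows from that value, because deviations cancel out within a group, and is no separate support. From the first value the numbers were taken to pair the libraries. Blocked values are given where they change the call of a member or the number of calls in a list. Planned tests of Prkaa1 and of the alpha1 share with quiescence were computed but are not given, since the same libraries chose Prkaa1. The labels do not say that the libraries of a group came from separate cultures beyond the experiment number. The p-values weigh a difference against the spread between these libraries, which without the block includes the spread between experiments.

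Genes outside the 8 were named by rule: in each list, up to 4 genes past the threshold with quiescence in control cells with the lowest p and the same direction in all 3 experiments, any past it after knockdown, and the 5 genes most like Prkaa1. A few genes that this rule or the marker lists would name are not reported here. Per-length levels used the exonic length in GENCODE M21. Alternatives were DESeq2 1.42.0, other filters and scaling, the block, the libraries of a contrast alone and each library left out.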

Additional observations from a re-analysis of the deposited data

Results flagged for a closer look

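Prkaa1 was higher with quiescence in control cells in 3 of 3 experiments, by 0.25, 0.01 and 0.23 on the log2 scale, and lower with quiescence in knockdown cells in 3 of 3, at -0.48, -0.10 and -0.34. The signs with shNT and sh4 were thus opposite in every experiment, but in experiment 7 the shNT levels were nearly equal, at 87.9 and 88.8 CPM. Osgep and Chfr, named above as like Prkaa1, showed the same opposite signs in every experiment, and Stag2, Ctnna1 and Pdcl3 did not. The fitted log2 fold changes in control and knockdown cells were 0.10 and -0.37 for Osgep and 0.27 and -0.41 for Chfr. How many of all tested genes show such opposite signs was not counted. For Prkaa1 the fitted difference between the hairpins was -0.46 (SE 0.17), and by experiment it was -0.73, -0.11 and -0.56. No test of it is given for Prkaa1, because the knockdown values of the gene chose it. Left-out libraries and other settings kept the difference between -0.58 and -0.40.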

How the results depend on the processing

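With the experiment as a replicate block, the number of genes passing went from 2481 to 4374 for quiescence in control cells, from 2279 to 4096 in knockdown cells and from 54 to 440 for knockdown in quiescent cells, and stayed at 3 for knockdown in proliferating cells and 0 for the interaction. DESeq2 called 12 genes after knockdown in proliferating cells, 390 in quiescent cells and 6 for the interaction. Fits on the libraries of a contrast alone gave 1582 genes for quiescence in control cells and 1 for knockdown in proliferating cells. Leaving out 1 library at a time gave 1394 to 3078, 1186 to 2408, 1 to 3 and 5 to 64 genes in the same order of comparisons, and 0 for the interaction. The lowest counts came without the proliferating shNT library of experiment 7 (1394), the quiescent sh4 library of experiment 9 (1186 and 5), and each of 4 proliferating libraries (1).

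With 1 library left out, Prkag1 ranged from -0.20 to 0.017 and Prkag2 from -0.040 to 0.094 with quiescence in control cells, and from -0.10 to 0.18 and -0.21 to 0.060 in knockdown cells. Prkag2 with quiescence in control cells changed sign to -0.040 without proliferating shNT of experiment 7, and Prkag1 to 0.017 without that of experiment 9. In knockdown cells Prkag1 changed to -0.071 and Prkag2 to 0.060 without proliferating sh4 of experiment 5, and Prkag1 to -0.10 without quiescent sh4 of experiment 5. None of these passed the threshold in any fit. Prkab2 with quiescence in control cells passed with DESeq2 (adjusted p = 0.0465) and without quiescent sh4 of experiment 5 (adjusted p = 0.0394 in edgeR), and Prkaa2 in knockdown cells without proliferating sh4 of experiment 9 (2.40 on the log2 scale, adjusted p = 0.0499). Of 18 alternative fits in edgeR or DESeq2, 15 gave no call for this Prkab2 comparison and 16 for that of Prkaa2. The adjusted p there ran up to 0.173 and 0.540. Prkaa1 ranged from -0.63 to -0.51 after knockdown in proliferating and from -1.15 to -0.98 in quiescent cells. By Spearman rho, 1 of the 5 genes most like Prkaa1 was shared. Share differences with 1 library left out ranged from -3.34 to -0.77 and -10.3 to -4.41 points for alpha1, -5.94 to -3.59 and -9.19 to -3.86 for beta1, and -1.76 to -0.15 and -0.95 to 2.23 for gamma1. With no division by length the beta1 difference in control cells was -7.21 points. Low counts limit Prkaa2, at 30 to 248 reads per library.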
